A study of Mus musculus with 20 samples.

Results

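The comparison was between the IL-33 response of ST2+ thymic group 2 innate lymphoid cells (ILC2) and the response of IL25R+ thymic ILC2 to IL-25 and IL-33 given together. It used 14 of the 20 libraries of the series: 4 of ST2+ cells with IL-33, 4 of ST2+ cells with vehicle, 3 of IL25R+ cells with both cytokines and 3 of IL25R+ cells with vehicle. The libraries were chosen by their labels, and the 2 deposited tables were joined on the gene symbol. The other 6 libraries, of IL25R+ cells with a single cytokine, entered no contrast. In the fits they contributed to the spread between libraries, the filter on low counts and the scaling. The mice were young wild-type males, and thymic cells were sorted either for ST2, which binds IL-33 and is the product of Il1rl1, or for the IL-25 receptor, whose ligand-binding chain is encoded by Il17rb. Every group was kept with IL-7 at 10 ng/mL, for 12 h and, after fresh medium, for another 24 h. Recombinant cytokine (10 ng/mL of each) or saline vehicle then followed for 24 h. RNA was counted at the 3' end by bulk MARS-seq. The labels do not say whether libraries of a group came from separate mice, so p-values measure the spread between these libraries, which may be technical. The question was how far the joint stimulus moves IL25R+ cells in the direction that IL-33 moves ST2+ cells. The contrast was the ST2+ change (IL-33 over vehicle) minus the IL25R+ change (both cytokines over vehicle), called the difference below. The populations were measured in separate tables, so levels were not compared between them.

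IL-33 binds ST2, which pairs with a shared accessory chain and signals through MyD88 and IRAK kinases to NF-kB and MAP kinases. IL-25 binds IL-17RB, which pairs with IL-17RA and reaches NF-kB through another adaptor. In ILC2 these signals act with the transcription factor GATA3 to raise type-2 cytokines such as IL-13 and IL-5 and products of tissue repair such as amphiregulin, and IL-7 supports survival of the cells.

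The promoters of 5 genes that carry the main results are shown, from 250 bases before to 50 bases after the start site, read from RefSeq on build GRCm38.p6. Nfkbia, which encodes an NF-kB inhibitor induced by NF-kB itself, responded more in ST2+ cells, and Il13 responded in both populations. Mki67, Kif11 and Top2a, genes of dividing cells, changed in IL25R+ cells. Capitals mark GGGANTTTC, a core of NF-kB sites found at 2 places, in Nfkbia, GATAA, the core bound by GATA factors, in Il13, and TTTGAA, a core of the cell cycle genes homology region, in the other 3. Both strands were searched, and the windows are chr12:55492598-55492897 on the minus strand for Nfkbia, chr11:53634653-53634952 on the minus strand for Il13, chr7:135716330-135716629 on the minus strand for Mki67, chr19:37376132-37376431 on the plus strand for Kif11 and chr11:99024140-99024439 on the minus strand for Top2a.
Nfkbia: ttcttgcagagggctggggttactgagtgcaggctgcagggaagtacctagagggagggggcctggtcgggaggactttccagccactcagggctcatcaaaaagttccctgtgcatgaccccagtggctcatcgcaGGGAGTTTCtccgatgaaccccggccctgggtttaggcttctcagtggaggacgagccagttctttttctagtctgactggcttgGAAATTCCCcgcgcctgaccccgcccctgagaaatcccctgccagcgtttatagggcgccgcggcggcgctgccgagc
Il13: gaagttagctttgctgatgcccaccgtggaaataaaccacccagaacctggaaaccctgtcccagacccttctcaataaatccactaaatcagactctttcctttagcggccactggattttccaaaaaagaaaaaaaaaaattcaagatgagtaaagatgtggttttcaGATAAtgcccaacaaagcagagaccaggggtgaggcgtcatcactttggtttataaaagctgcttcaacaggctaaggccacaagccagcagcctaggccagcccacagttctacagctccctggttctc
Mki67: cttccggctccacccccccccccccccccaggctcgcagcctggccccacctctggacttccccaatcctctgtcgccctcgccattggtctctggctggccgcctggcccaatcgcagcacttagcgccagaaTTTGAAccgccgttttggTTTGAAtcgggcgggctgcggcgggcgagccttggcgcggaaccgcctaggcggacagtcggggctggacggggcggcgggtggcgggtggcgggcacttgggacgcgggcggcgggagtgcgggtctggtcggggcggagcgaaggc
Kif11: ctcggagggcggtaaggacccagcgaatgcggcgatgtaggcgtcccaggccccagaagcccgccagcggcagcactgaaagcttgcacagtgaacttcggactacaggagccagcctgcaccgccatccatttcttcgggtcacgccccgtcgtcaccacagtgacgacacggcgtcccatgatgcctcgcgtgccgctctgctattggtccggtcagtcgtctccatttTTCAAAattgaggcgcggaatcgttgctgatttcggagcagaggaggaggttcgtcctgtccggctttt
Top2a: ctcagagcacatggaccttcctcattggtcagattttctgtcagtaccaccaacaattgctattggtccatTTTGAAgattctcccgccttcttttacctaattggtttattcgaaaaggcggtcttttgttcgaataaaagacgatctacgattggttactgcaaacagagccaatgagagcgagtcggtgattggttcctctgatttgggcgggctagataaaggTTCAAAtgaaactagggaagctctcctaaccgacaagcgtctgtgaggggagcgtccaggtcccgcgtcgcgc

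TTTGAA lay in the promoters of 9 of the 13 matched genes of the G2 and mitosis list (69.2%), against 20.2% of the 27025 genes with a RefSeq promoter and 14.1% of the genes tested. Its share was 18.7% among genes whose difference was called lower and 12.9% among those called higher. GGGANTTTC lay in 2 of the 14 matched genes of the NF-kB list (14.3%), against 1.29% of all promoters and 1.15% of the genes tested. Of matched genes whose difference was called higher, 1 of 139 had it (0.719%), and of those called lower 8 of 386 (2.07%). GATAA was common, at 28.4% of all promoters, 18.7% of the genes tested, 21.8% among genes called higher in both responses and 11.5% among genes whose difference was called higher. TTTCCCGC, an E2F core, lay in 3 of the 15 matched genes of the S phase list and in 1.24% of all promoters and 2.57% of the genes tested. These are matches of letters in a short window and not binding sites.

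Total counts lay between 1187302 and 5453444 in ST2+ cells with IL-33, between 537999 and 2736408 in ST2+ vehicle, between 1398657 and 1880906 in IL25R+ cells with both cytokines and between 834913 and 1423004 in IL25R+ vehicle. The biological coefficient of variation was 0.328 among the ST2+ libraries and 0.128 among the IL25R+ libraries, so a change of a given size was called less easily in ST2+ cells. The difference was fitted with a single spread for both populations (0.221), below that of the ST2+ libraries. Its SE and adjusted p may therefore be too small where the ST2+ libraries vary more. With limma-voom weighted by population, 161 differences were called higher and 574 lower. In ST2+ cells, IL-33 library 2 had a median correlation of 0.840 with its own group, against 0.937 to 0.944 for the other 3, and vehicle library 3 had 0.894, against 0.916 to 0.924. That vehicle library also held 488 CPM (counts scaled to library size within each table) summed over fibroblast markers, against 0 to 54.0 CPM in the other ST2+ libraries. Of 16 ILC2 markers 14 were listed for ST2+ cells and 15 for IL25R+ cells. Gata3, Thy1, Il7r, Kit, Il1rl1 and Il17rb among them were counted in every library, and T cells also carry Thy1. Klrg1, another of the list, was absent from an IL25R+ vehicle library. Summed T-cell markers were 28.9 to 71.1 CPM in ST2+ cells with IL-33 and 93.3 to 163 CPM in ST2+ vehicle, and 585 to 626 CPM in IL25R+ cells with both cytokines and 818 to 858 CPM in IL25R+ vehicle. Markers of other cell types also moved with treatment. The single listed marker of NK cells and ILC1, Gzma, was at 0 to 0.598 CPM in ST2+ cells with IL-33 and 0 to 3.07 CPM in ST2+ vehicle, and fell in IL25R+ cells to 96.1 to 125 CPM with both cytokines, against 252 to 265 CPM with vehicle. The endothelial marker Pecam1, the single one listed, rose in both, at 54.2 to 102 CPM in ST2+ cells with IL-33 and 11.9 to 29.2 CPM in ST2+ vehicle, and at 181 to 200.2 CPM in IL25R+ cells with both cytokines and 77.4 to 85.1 CPM in IL25R+ vehicle. Summed markers of B and plasma cells were 32.1 to 50.8 CPM in ST2+ cells with IL-33 and 18.6 to 30.8 CPM in ST2+ vehicle, where Cd79b rose, and 188 to 232 CPM in IL25R+ cells with both cytokines and 153 to 224 CPM in IL25R+ vehicle. In ST2+ cells summed mast-cell, basophil and eosinophil markers were 3.67 to 60.3 CPM with IL-33 and 1.02 to 32.3 CPM with vehicle, where Tpsb2 rose. Summed thymic epithelial markers were 1.5 to 23.2 CPM with IL-33 and 7.34 to 19.7 CPM with vehicle in ST2+ cells, where Epcam fell and its difference was called lower. Summed MHC class II genes were 157 to 435 CPM with IL-33 and 63.9 to 155 CPM with vehicle in ST2+ cells. In IL25R+ cells they were 115 to 171 CPM with both cytokines and 64.4 to 212 CPM with vehicle. Summed ILC3 markers in ST2+ cells were 2.21 to 102 CPM with IL-33 and 3.39 to 12.5 CPM with vehicle, and reached at most 12 CPM in IL25R+ cells. The part of these cells in the results was not tested. Dendritic-cell markers reached at most 5.71 CPM and red-cell markers summed to 0. In bulk RNA, fewer cells of a type and less RNA per cell cannot be told apart.

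Both responses raised Il13, Irf4, Batf, Dgat2 and a set of cytokine genes. Gstm1, Gadd45b, Pim2 and the NF-kB inhibitors Nfkbia and Nfkbib responded more in ST2+ cells with IL-33. Mki67, Mcm5, Il1rl1, Cd69 and Ccl5 responded more in IL25R+ cells with both cytokines. Ccr2 and Itgae fell in ST2+ cells, while their groups overlapped in IL25R+ cells. Cd27 fell in both populations and further in ST2+ cells. IL-33 changed 1262 of 7626 tested genes in ST2+ cells (16.5%), 650 higher (8.52%) and 612 lower (8.03%), at an adjusted p under 0.05 by the quasi-likelihood test of edgeR with Benjamini-Hochberg adjustment, the test behind every adjusted p given here. Both cytokines changed 1384 of 8850 tested genes in IL25R+ cells (15.6%), 794 higher (8.97%) and 590 lower (6.67%). The difference between the responses was called for 638 of 8964 genes (7.12%), of which 157 responded higher in ST2+ cells (1.75%) and 481 lower (5.37%). A group with 3 counts or fewer entered 2 of the higher and 33 of the lower calls. Without ST2+ IL-33 library 2 the difference was called for 656 genes higher and 968 lower. With only the compared groups in the fit it was called for 74 higher and 284 lower. The excess of lower calls varied with the scaling and the libraries. In the main fit 24.6% of the calls were higher and the median difference was -0.0988. DESeq2 size factors gave 212 higher and 408 lower (34.2% higher, median -0.0338). TMM scaling within each population gave 191 higher and 428 lower (30.9% higher, median -0.0424). Over all settings the higher share ran from 20.7% with compared groups alone to 42.2% without ST2+ IL-33 library 2 and vehicle library 3.

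Among the 7154 genes tested in both tables, 228 were called higher in both responses (3.19% of those tested), which is 39.6% of the 576 genes higher in ST2+ cells and 30.5% of the 747 higher in IL25R+ cells. Those 576 and 747 are 8.05% and 10.4% of the genes tested in both. Another 155 were lower in both (2.17%), 27.8% of the 558 lower in ST2+ cells and 35.8% of the 433 lower in IL25R+ cells, which are 7.8% and 6.05% of the genes tested in both. Another 13 were called in opposite directions. The signs matched more often than the calls. Of the 576 genes higher in ST2+ cells, 91.5% had a positive log2 change in IL25R+ cells, against 52.1% of all genes tested in both. Their median log2 change was 1.09 in ST2+ cells, the value they were chosen by, and 0.436 in IL25R+ cells. For the 558 genes lower in ST2+ cells, 78.5% had a negative change in IL25R+ cells, against 47.9% of all genes, and the medians were -1.38 in ST2+ cells and -0.299 in IL25R+ cells. Read the other way, the 747 genes higher with both cytokines had a median of 0.546 in ST2+ cells and 0.775 in IL25R+ cells, and the 433 lower ones had -0.816 in ST2+ cells and -0.614 in IL25R+ cells. Across genes the log2 changes had Pearson r 0.440 and Spearman rho 0.448, a description in which genes are not independent and the libraries of the 2 tables are separate.

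Of the 157 genes whose difference was higher, 90 were called higher in ST2+ cells and not called in IL25R+ cells, 27 were higher in both, and 12 were not called in ST2+ cells and lower in IL25R+ cells. Of the 481 lower ones, 201 were called lower in ST2+ cells and not called in IL25R+ cells, 98 were not called in ST2+ cells and higher in IL25R+ cells, and 39 were lower in both. Of the 228 genes higher in both, 34 had a called difference, and of the 155 lower in both, 39 had one. The call of a gene in a single population is not a test that the populations differ, so the difference is given for each gene below.

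**Figure D1:**
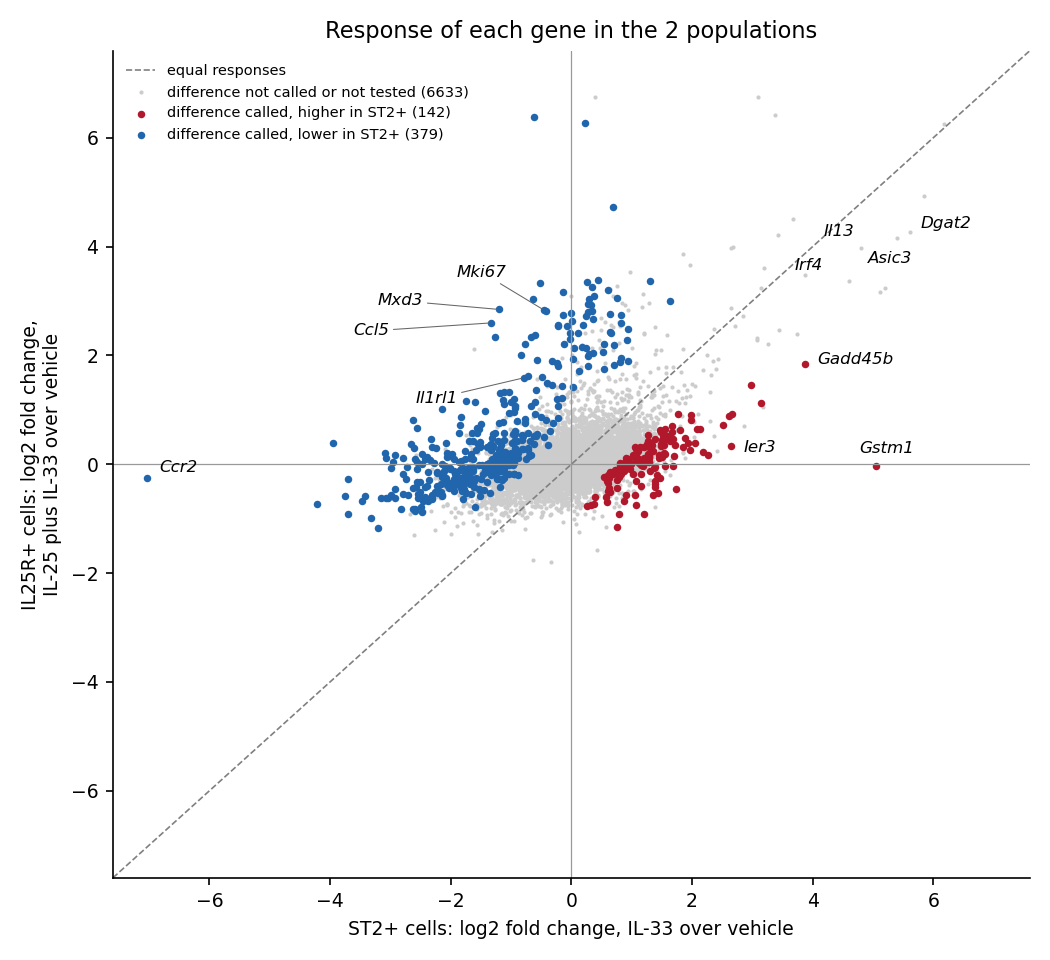
Log2 fold change of each of 7154 genes in ST2+ cells (IL-33 over vehicle, horizontal axis) and in IL25R+ cells (IL-25 plus IL-33 over vehicle, vertical axis). Red points (142) are genes whose difference was called higher in ST2+ cells and blue points (379) those called lower, and grey points had no called difference. Il13 and Dgat2 lie high in both responses, Gstm1 at 5.06 in ST2+ cells and -0.03 in IL25R+ cells, and Mki67 at -0.46 in ST2+ cells and 2.84 in IL25R+ cells.

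Il13, the type-2 cytokine that drives mucus and tissue responses, rose in both populations. It had 12474, 3312, 9051 and 12633 CPM in ST2+ cells with IL-33 and 318, 159, 186 and 668 CPM in ST2+ vehicle. In IL25R+ cells it had 373, 362 and 299 CPM with both cytokines and 15, 32.6 and 21.7 CPM with vehicle. The treated libraries lay above every vehicle library in each population, a pattern that 11.6% of genes showed in ST2+ cells and 18.6% in IL25R+ cells. The opposite pattern, all treated below all vehicle libraries, was shown by 10.3% and 17.7% of genes in the same order. The log2 change was 4.80 ± 0.59 (SE) in ST2+ cells (adjusted p = 0.000864) and 3.97 ± 0.44 in IL25R+ cells (adjusted p = 1.38e-06). Their difference, 0.87 ± 0.80, did not pass the test (adjusted p = 0.558).

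Il5 and Il9 were too low in IL25R+ cells for a test of their response. Il5, which supports eosinophils, had 1085, 108, 407 and 1264 CPM in ST2+ cells with IL-33 and 18.4, 5.36, 15.3 and 20.2 CPM in ST2+ vehicle, a log2 change of 5.48 ± 0.73 (adjusted p = 0.00109), while in IL25R+ cells it had 2.89, 3.26 and 4.44 CPM with both cytokines and 0, 0 and 0.943 CPM with vehicle. For Il5, every treated library lay above every vehicle library in both populations. Il9, a cytokine that ILC2 can use on themselves, had 88.9, 136, 117 and 61.6 CPM in ST2+ cells with IL-33 and 0.512, 0, 0 and 0.367 CPM in ST2+ vehicle. In IL25R+ cells Il9 was uneven, at 1.45, 117 and 14.6 CPM with both cytokines and 1.95, 1.17 and 3.77 CPM with vehicle, so 1 library held most of it. ST2+ vehicle held 3 counts or fewer of Il9, so no fold is given. Il4 did not pass in either population, with log2 changes of -0.67 ± 0.39 in ST2+ cells and 0.70 ± 0.57 in IL25R+ cells. Areg, which encodes amphiregulin, was listed in the ST2+ table and had 103, 1.11, 48.2 and 133 CPM with IL-33 and 4.1, 0, 3.39 and 6.61 CPM with vehicle. Its log2 change there was 4.05 ± 0.92 (adjusted p = 0.0137). That call was lost when ST2+ vehicle library 1 was left out and with limma-voom (adjusted p 0.000119 to 0.173 over 16 alternatives).

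Of the list of other cytokines, 7 of 9 tested genes were higher in ST2+ cells and 8 of 9 in IL25R+ cells, where 1 was lower, and 7 genes were higher in both. Over all tested genes the shares called higher were 8.52% in ST2+ cells and 8.97% in IL25R+ cells. The list's median log2 change was 1.85 in ST2+ cells, against 0.0014 over all genes tested, and 2.003 in IL25R+ cells, against -0.029. The counts fell to 4 in ST2+ cells without vehicle library 2, and to 4 in IL25R+ cells without vehicle library 1 and 5 with the 10 CPM filter. Csf2, encoding the myeloid growth factor GM-CSF, had 169.5, 416, 410.1 and 149.7 CPM in ST2+ cells with IL-33 and 35.3, 7.15, 8.47 and 24.2 CPM in ST2+ vehicle. Csf2 in IL25R+ cells had 6.5, 11.4 and 14.6 CPM with both cytokines and 1.95, 0 and 3.77 CPM with vehicle. For Csf2, every treated library lay above every vehicle library in both populations. It rose by 3.74 ± 0.51 in ST2+ cells (adjusted p = 0.00125) and by 2.39 ± 0.72 in IL25R+ cells (adjusted p = 0.0264). In IL25R+ cells the Csf2 call was lost when IL25R+ both library 2 or 3 or IL25R+ vehicle library 1 or 2 was left out singly and with limma-voom (adjusted p 0.0181 to 0.118 over 11 alternatives). Il6, an inflammatory cytokine, rose by 3.26 ± 0.56 in ST2+ cells (adjusted p = 0.00376) and by 2.21 ± 0.52 in IL25R+ cells (adjusted p = 0.0055), and the IL25R+ call was lost when IL25R+ vehicle library 1 was left out (adjusted p 0.00104 to 0.0613 over 12 alternatives). Ebi3, a subunit of IL-27 and IL-35, rose by 2.64 ± 0.27 in ST2+ cells (adjusted p = 0.000429) and by 3.98 ± 0.48 in IL25R+ cells (adjusted p = 4.05e-06). None of these 3 had a called difference with all libraries.

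Of the activation transcription factors 5 of 11 tested were higher in ST2+ cells, against 8.52% of all tested genes, and 7 of 13 in IL25R+ cells, against 8.97%, with none lower and 4 higher in both. Batf, an AP-1 factor that pairs with IRF4, had 1556, 870.0, 1408 and 1475 CPM in ST2+ cells with IL-33 and 181, 145, 168 and 242 CPM in ST2+ vehicle. Batf in IL25R+ cells had 343, 369 and 376 CPM with both cytokines and 54.6, 51.3 and 58.5 CPM with vehicle. The groups did not overlap in either population. Its log2 change was 2.84 ± 0.27 in ST2+ cells (adjusted p = 0.000261) and 2.72 ± 0.20 in IL25R+ cells (adjusted p = 2.00e-09), and the difference was 0.13 ± 0.36 (adjusted p = 0.869). Irf4 had 116, 39.8, 54 and 126 CPM in ST2+ cells with IL-33 and 5.12, 3.58, 0 and 3.3 CPM in ST2+ vehicle. Irf4 in IL25R+ cells had 29.6, 46.2 and 16.5 CPM with both cytokines and 1.3, 3.5 and 4.72 CPM with vehicle. For Irf4, every treated library lay above every vehicle library in both populations. It rose by 4.60 ± 0.54 in ST2+ cells (adjusted p = 0.000707) and by 3.37 ± 0.59 in IL25R+ cells (adjusted p = 0.000387).

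By the smaller of the 2 changes, the 10 genes that rose most in both responses were Dgat2, Asic3, Il13, Tnfrsf9, Irf4, Rpph1, Adap1, Slc15a3, Cd72 and Batf. Dgat2, which makes triglycerides for lipid storage, had 581, 798, 493 and 423 CPM in ST2+ cells with IL-33 and 16.9, 5.36, 11.9 and 9.55 CPM in ST2+ vehicle. Dgat2 in IL25R+ cells had 34.7, 19 and 36.1 CPM with both cytokines and 0.65, 3.5 and 0.943 CPM with vehicle. For Dgat2, every treated library lay above every vehicle library in both populations. It rose by 5.62 ± 0.35 in ST2+ cells (adjusted p = 2.16e-05) and by 4.26 ± 0.59 in IL25R+ cells (adjusted p = 2.61e-05). Asic3, a proton-gated ion channel, rose by 5.41 ± 0.48 in ST2+ cells (adjusted p = 0.00023) and by 4.16 ± 0.25 in IL25R+ cells (adjusted p = 1.86e-10). Cd72, a C-type lectin coreceptor, rose by 3.14 ± 0.33 in ST2+ cells and by 3.24 ± 0.23 in IL25R+ cells, with a difference of -0.13 ± 0.44. Tnfrsf9, the costimulatory receptor 4-1BB, rose by 3.87 ± 0.50 in ST2+ cells and by 3.48 ± 0.52 in IL25R+ cells, with 0.65, 0 and 4.72 CPM in the IL25R+ vehicle libraries. Adap1 rose by 3.19 ± 0.47 in ST2+ cells and by 3.61 ± 0.36 in IL25R+ cells. Rpph1, the RNA of RNase P, which has near-identical copies in the genome, rose by 5.20 ± 0.43 in ST2+ cells and by 3.24 ± 0.54 in IL25R+ cells. Slc15a3, a peptide and histidine transporter, rose by 5.12 ± 0.48 in ST2+ cells and by 3.16 ± 0.73 in IL25R+ cells, and the second call was lost when IL25R+ vehicle library 1 was left out (adjusted p 9.99e-05 to 0.0568 over 12 alternatives). None of the 10 differences passed the test with all libraries. That of Asic3, 1.30 ± 0.59, was called without both ST2+ libraries that stood apart (adjusted p = 0.0232) and in ST2+ libraries 1 and 4 alone (adjusted p = 0.0326), and was between 0.89 and 1.89 over its alternatives.

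**Figure D2:**
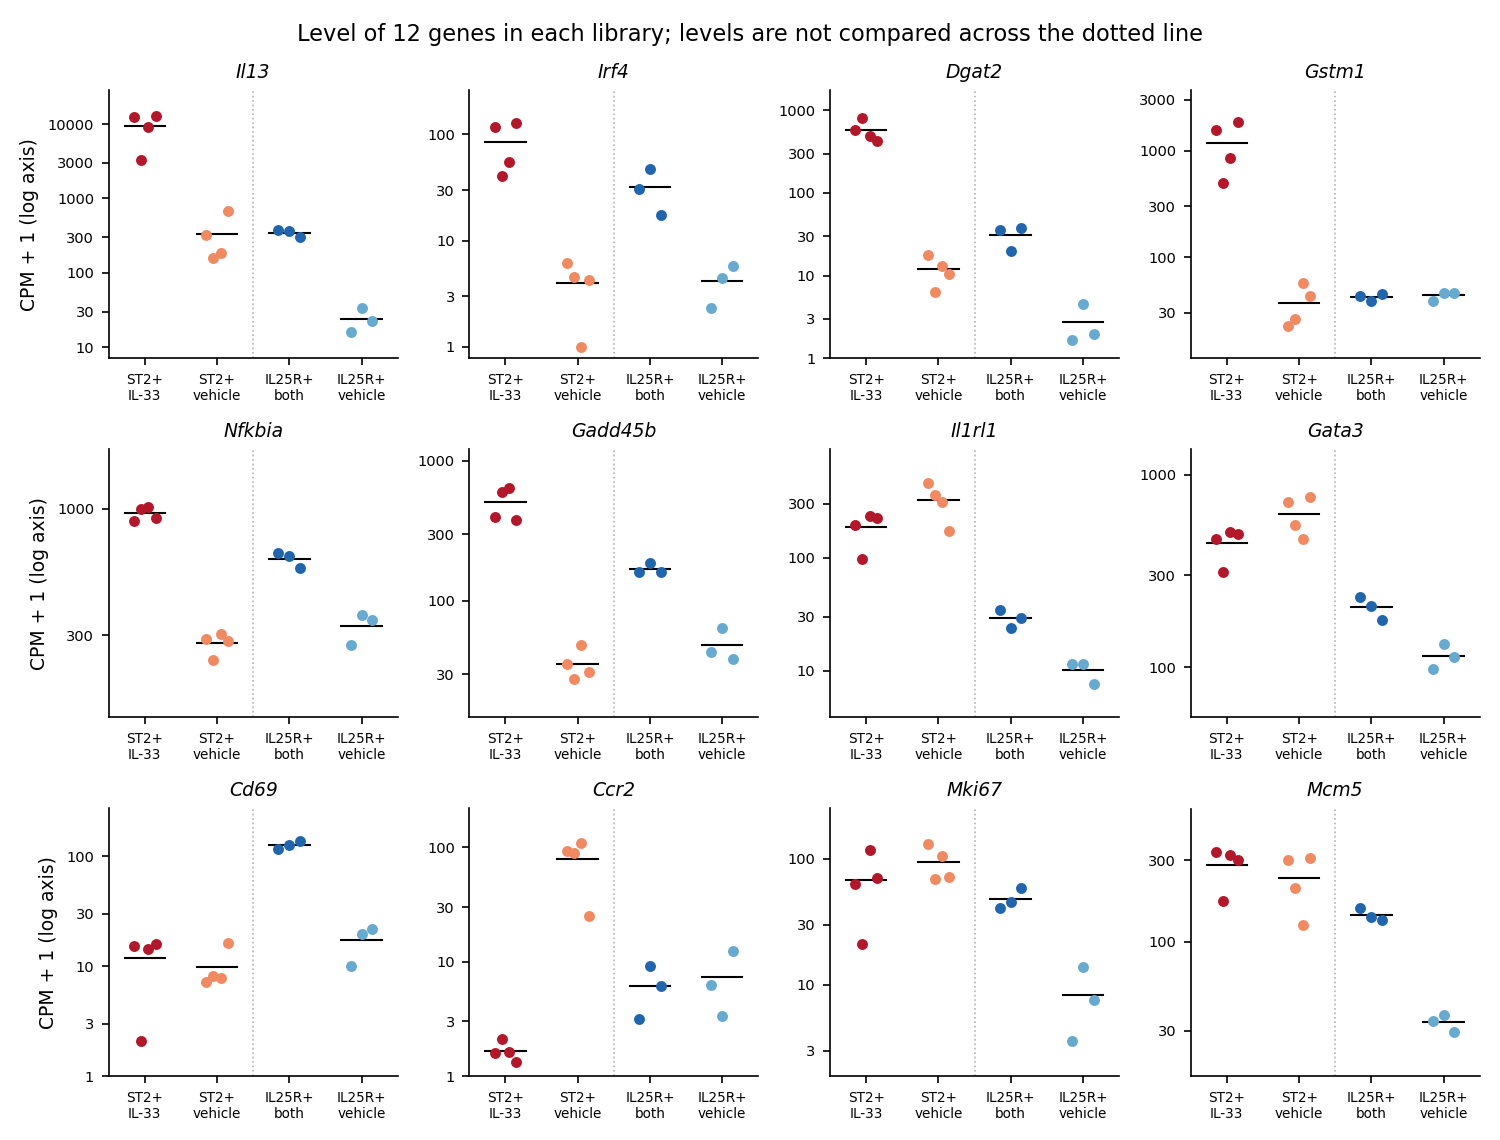
Level of 12 genes in each library as CPM plus 1 on a log axis, with ST2+ cells left and IL25R+ cells right of the dotted line and treated libraries left of vehicle. Points are libraries and bars are group means. Il13, Irf4, Dgat2, Nfkbia and Gadd45b rise in both populations, Gstm1 rises in ST2+ cells, and Cd69, Mki67 and Mcm5 rise in IL25R+ cells.

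Among called genes at a mean of 10 CPM or more, the largest difference in favour of ST2+ cells was that of Gstm1, a glutathione transferase on chromosome 3 (3:108012255-108017973, GRCm38). It had 1571, 496, 851 and 1839 CPM in ST2+ cells with IL-33 and 21.5, 25, 55.9 and 41.9 CPM in ST2+ vehicle. IL25R+ cells had 42.6, 38.1 and 44.4 CPM with both cytokines and 37.7, 45.4 and 45.3 CPM with vehicle, ranges that overlap. The log2 change was 5.06 ± 0.49 in ST2+ cells (adjusted p = 0.000267) and -0.03 ± 0.17 in IL25R+ cells (adjusted p = 0.957). The difference was 5.13 ± 0.53 (adjusted p = 1.16e-05) and lay between 4.83 and 5.78 over the alternatives, all past the test. Glutathione transferases of this family resemble each other in sequence, and reads of near-identical relatives could be split by the counting.

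Genes of the NF-kB pathway rose in both populations, and several rose more in ST2+ cells. Of the list of NF-kB subunits and feedback genes 9 of 15 tested were higher in ST2+ cells (median log2 1.29) and 7 of 16 in IL25R+ cells (median 0.488), none was lower, and 5 were higher in both. The difference was called higher for Nfkbia, Nfkbib and Icam1 and lower for Relb, of 16 tested, with a list median of 0.782, against -0.099 over all genes. Over all tested genes 8.52% were higher in ST2+ cells and 8.97% in IL25R+ cells. The difference was higher for 1.75% and lower for 5.37%, so 1 lower call of 16 is near the general share. The higher count was 7 without ST2+ IL-33 library 2, and 7 also under both sets of libraries added after the data were seen. Nfkbia had 884, 999, 1019 and 914 CPM in ST2+ cells with IL-33 and 287, 236, 303 and 282 CPM in ST2+ vehicle. Nfkbia in IL25R+ cells had 654, 639 and 568 CPM with both cytokines and 272, 362 and 347 CPM with vehicle. For Nfkbia, every treated library lay above every vehicle library in both populations. It rose by 1.78 ± 0.19 in ST2+ cells (adjusted p = 0.000453) and by 0.93 ± 0.13 in IL25R+ cells (adjusted p = 2.35e-05), a difference of 0.86 ± 0.21 (adjusted p = 0.0157). Nfkbib, a second inhibitor of NF-kB, had 321, 365, 328 and 345 CPM in ST2+ cells with IL-33 and 157, 114, 129 and 151 CPM in ST2+ vehicle. Nfkbib in IL25R+ cells had 129, 129 and 122 CPM with both cytokines and 112, 131 and 131 CPM with vehicle. Only the ST2+ libraries were separated, and the difference was 1.26 ± 0.21 (adjusted p = 0.00123). Relb, the subunit of the alternative NF-kB pathway, had 107, 131, 78.1 and 102 CPM in ST2+ cells with IL-33 and 69.7, 66.1, 50.8 and 92.5 CPM in ST2+ vehicle. Relb in IL25R+ cells had 39, 47.3 and 41.8 CPM with both cytokines and 14.3, 10.5 and 12.3 CPM with vehicle. For Relb, the groups overlapped in ST2+ cells, and every treated library lay above every vehicle library in IL25R+ cells. The Relb difference of -1.22 ± 0.32 (adjusted p = 0.0236) was lost when ST2+ IL-33 library 1, IL25R+ both library 1, 2 or 3 or IL25R+ vehicle library 1, 2 or 3 was left out singly and in the fit of the compared groups alone (adjusted p 0.00121 to 0.0989 over 25 alternatives).

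Gadd45b, Pim2, Ier3 and Junb responded more in ST2+ cells. Gadd45b, a stress gene induced by NF-kB, had 397, 602, 641 and 374 CPM in ST2+ cells with IL-33 and 34.3, 26.8, 47.4 and 30.1 CPM in ST2+ vehicle. Gadd45b in IL25R+ cells had 159, 184 and 159 CPM with both cytokines and 42.3, 62.9 and 37.7 CPM with vehicle. The groups were apart in both populations, and the rise was 3.87 ± 0.28 in ST2+ cells and 1.85 ± 0.21 in IL25R+ cells, a difference of 2.05 ± 0.36 (adjusted p = 0.002). Pim2, a survival kinase, had 811, 321, 1009 and 741 CPM in ST2+ cells with IL-33 and 87.1, 75.1, 59.3 and 99.1 CPM in ST2+ vehicle. Pim2 in IL25R+ cells had 522, 519 and 579 CPM with both cytokines and 237, 259.9 and 249 CPM with vehicle. For Pim2, every treated library lay above every vehicle library in both populations. Its difference was 2.04 ± 0.37 (adjusted p = 0.00231). Ier3, an immediate early gene, had 142, 135, 288 and 132 CPM in ST2+ cells with IL-33, where library 3 stood above the rest, and 13.8, 34, 54.2 and 18.4 CPM in ST2+ vehicle. In IL25R+ cells Ier3 had 279.7, 227 and 257 CPM with both cytokines and 194, 216 and 194 CPM with vehicle, and the difference was 2.41 ± 0.44 (adjusted p = 0.00231). For Ier3, every treated library lay above every vehicle library in both populations. Junb, an AP-1 subunit, had a difference of 1.27 ± 0.35 (adjusted p = 0.0283), which was lost when ST2+ vehicle library 1 or 2, IL25R+ both library 2 or 3 or IL25R+ vehicle library 1 or 2 was left out singly and in the fit of the compared groups alone (adjusted p 1.35e-05 to 0.0827 over 25 alternatives).

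Jak2, a kinase of cytokine receptors, had 156, 83, 142 and 174 CPM in ST2+ cells with IL-33 and 53.8, 23.2, 39 and 17.6 CPM in ST2+ vehicle. Jak2 in IL25R+ cells had 139, 168 and 161 CPM with both cytokines and 122, 115 and 122 CPM with vehicle. For Jak2, every treated library lay above every vehicle library in both populations. It rose by 2.05 ± 0.36 in ST2+ cells (adjusted p = 0.00454) and by 0.38 ± 0.13 in IL25R+ cells (adjusted p = 0.0426), a call lost when IL25R+ both library 2 or 3 or IL25R+ vehicle library 1, 2 or 3 was left out singly, with DESeq2 and with the replicate block (adjusted p 0.0161 to 0.151 over 13 alternatives), and the difference was 1.70 ± 0.39 (adjusted p = 0.00987). Furin, the protease that matures many secreted proteins, had 1711, 1686, 788 and 1482 CPM in ST2+ cells with IL-33 and 204, 182, 154 and 173 CPM in ST2+ vehicle. Furin in IL25R+ cells had 197, 141 and 162 CPM with both cytokines and 60.5, 75.7 and 46.2 CPM with vehicle. For Furin, every treated library lay above every vehicle library in both populations. It rose in both and its difference was 1.54 ± 0.35 (adjusted p = 0.00987). Srm, which makes the polyamine spermidine, rose by 1.98 ± 0.22 in ST2+ cells and by 0.90 ± 0.13 in IL25R+ cells, a difference of 1.10 ± 0.26 (adjusted p = 0.0136). Atf4, the transcription factor of amino acid stress, had 536, 539, 475 and 468 CPM in ST2+ cells with IL-33 and 209, 236, 236 and 250.4 CPM in ST2+ vehicle. Atf4 in IL25R+ cells had 307, 332 and 293 CPM with both cytokines and 266, 274 and 244 CPM with vehicle. For Atf4, every treated library lay above every vehicle library in both populations. Its difference was 0.87 ± 0.21 (adjusted p = 0.0145). Tph1, which makes serotonin from tryptophan, had 189, 59.8, 114 and 196 CPM in ST2+ cells with IL-33 and 25.6, 8.94, 5.08 and 18.7 CPM in ST2+ vehicle. In IL25R+ cells Tph1 had 14.5, 10.9 and 3.8 CPM with both cytokines and 0, 0 and 0 CPM with vehicle, so no fold is given there.

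The 12 genes with the largest called differences in favour of ST2+ cells, at a mean of 10 CPM or more, were Gstm1, Wdr12, Ier3, Tmx1, Endou, Bcl6, Arhgap23, Utp4, Jun, Gadd45b, Pim2 and Zfp385a. Wdr12 and Utp4, both of ribosome assembly, had differences of 3.01 ± 0.75 and 2.18 ± 0.56. Those of Tmx1 and Arhgap23 were 2.31 ± 0.48 and 2.18 ± 0.43, and both differences held under the alternatives. Arhgap23 was not called in ST2+ cells (1.20 ± 0.43, adjusted p = 0.0775), though 5 of 15 alternatives called it. It fell in IL25R+ cells (-0.91 ± 0.20, adjusted p = 0.00369). The ST2+ call of Tmx1 was lost under 4 alternatives. Wdr12, Endou and Bcl6 were near the detection limit in ST2+ cells, at means of 4.56 ± 4.66, 1.96 ± 0.462 and 2.27 ± 0.915 CPM (SD, n = 4) with IL-33 and 0.735 ± 0.71, 0.722 ± 0.88 and 0.955 ± 0.704 CPM with vehicle, and were not tested there. In IL25R+ cells these 3 fell, with log2 changes of -0.53 ± 0.17 for Wdr12, -0.75 ± 0.14 for Endou and -1.07 ± 0.29 for Bcl6. That IL25R+ call was lost for Wdr12 when IL25R+ both library 1 or 3 or IL25R+ vehicle library 1, 2 or 3 was left out singly and with DESeq2 (adjusted p 0.014 to 0.174 over 13 alternatives), and for Bcl6 when IL25R+ both library 2 or IL25R+ vehicle library 1 or 3 was left out singly (adjusted p 0.0042 to 0.12 over 13 alternatives). The Wdr12 call of a difference was lost when ST2+ vehicle library 1 was left out, with weighted limma-voom and in the fit of the compared groups alone (adjusted p 0.00186 to 0.0735 over 25 alternatives). That of Endou was lost when ST2+ vehicle library 1 was left out, with weighted limma-voom and in the fit of the compared groups alone (adjusted p 0.00608 to 0.0968 over 25 alternatives). For Bcl6 it was lost when ST2+ IL-33 library 1 or 4, ST2+ vehicle library 1, 2 or 4, IL25R+ both library 1, 2 or 3 or IL25R+ vehicle library 1 or 3 was left out singly, with limma-voom, with weighted limma-voom and in the fit of the compared groups alone (adjusted p 0.015 to 0.175 over 25 alternatives). The Jun difference, 2.15 ± 0.62, was lost when ST2+ IL-33 library 1 or 4, ST2+ vehicle library 1 or 4, IL25R+ both library 2 or 3 or IL25R+ vehicle library 1, 2 or 3 was left out singly and with weighted limma-voom (adjusted p 0.00312 to 0.101 over 25 alternatives). That of Utp4 was lost with limma-voom and in the fit of the compared groups alone (adjusted p 1.94e-06 to 0.0697 over 25 alternatives). For Zfp385a, at 1.97 ± 0.53, it was lost when ST2+ IL-33 library 4, ST2+ vehicle library 1, IL25R+ both library 2 or 3 or IL25R+ vehicle library 1 or 3 was left out singly and in the fit of the compared groups alone (adjusted p 0.00301 to 0.0704 over 25 alternatives).

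Of 15 tested alarmin receptors and adaptors the difference was lower for Il1rl1, Il17rb and Irak2 and higher for none, and the list's median of -0.09 was close to the -0.099 of all tested genes. The difference was lower for 5.37% of all tested genes and higher for 1.75%. Il1rl1, on chromosome 1 (1:40429570-40465415, GRCm38), encodes ST2, and counts per gene pool its membrane and soluble forms. It had 195, 97.4, 232 and 225 CPM in ST2+ cells with IL-33 and 463, 356, 310.1 and 172 CPM in ST2+ vehicle, ranges that overlap. In IL25R+ cells it had 33.24, 22.9 and 28.5 CPM with both cytokines and 10.4, 10.5 and 6.6 CPM with vehicle, with every treated library above every vehicle library. The log2 change was -0.79 ± 0.33 in ST2+ cells (adjusted p = 0.126) and 1.59 ± 0.31 in IL25R+ cells (adjusted p = 0.00105), and the difference was -2.35 ± 0.52 (adjusted p = 0.00862). Il17rb, the IL-25 receptor chain, had 18.5, 12.2, 12.1 and 20.4 CPM in ST2+ cells with IL-33 and 75.8, 75.1, 57.6 and 124 CPM in ST2+ vehicle. It had 15.9, 14.1 and 10.8 CPM in IL25R+ cells with both cytokines and 15, 33.8 and 19.8 CPM in IL25R+ vehicle. For Il17rb, every treated library lay below every vehicle library in ST2+ cells, and the groups overlapped in IL25R+ cells. It fell in ST2+ cells (log2 change -2.37 ± 0.30, adjusted p = 0.000931), and the IL25R+ change was -0.68 ± 0.29 (adjusted p = 0.114). The Il17rb difference of -1.64 ± 0.43 (adjusted p = 0.0232) was lost when IL25R+ both library 1 or 2 or IL25R+ vehicle library 1 or 3 was left out singly and in the fit of the compared groups alone (adjusted p 0.00307 to 0.106 over 25 alternatives). Irak2, a kinase downstream of ST2, had 5.19, 17.7, 7.62 and 8.01 CPM in ST2+ cells with IL-33 and 17.9, 21.5, 20.3 and 14.7 CPM in ST2+ vehicle. Irak2 in IL25R+ cells had 24.6, 20.1 and 22.2 CPM with both cytokines and 12.4, 4.66 and 7.55 CPM with vehicle. For Irak2, the groups overlapped in ST2+ cells, and every treated library lay above every vehicle library in IL25R+ cells. Its difference was -2.42 ± 0.49 (adjusted p = 0.00509). Myd88, the adaptor, rose by 1.01 ± 0.23 in ST2+ cells (adjusted p = 0.0139), a call lost when ST2+ IL-33 library 1 or 4 was left out singly (adjusted p 0.00148 to 0.063 over 16 alternatives), and its difference of 0.73 ± 0.30 did not pass (adjusted p = 0.145). It passed without ST2+ IL-33 library 2 (adjusted p = 0.0374, the range being 0.0251 to 0.291).

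Of 14 ILC2 markers tested in ST2+ cells 2 were higher and 4 lower, and of 12 tested in IL25R+ cells 5 were higher and none lower. All tested genes had 8.52% higher and 8.03% lower in ST2+ cells, and 8.97% and 6.67% in IL25R+ cells. The ST2+ counts were 0 higher and 2 lower without IL-33 library 1. The higher count was also 0 without IL-33 library 4 and 1 without IL-33 library 3 or any vehicle library, and the lower count was also 2 without vehicle library 1. The difference was lower for 6 of 14 (Gata3, Il7r, Thy1, Il1rl1, Il17rb and Kit) and higher for none, with a list median of -1.43. Among all tested genes 5.37% had a lower and 1.75% a higher difference, so none higher is near the general share. Gata3, the factor that defines ILC2, had 462, 313, 505 and 493 CPM in ST2+ cells with IL-33 and 722, 547, 461 and 761 CPM in ST2+ vehicle. Gata3 in IL25R+ cells had 232, 206 and 175 CPM with both cytokines and 96.9, 131 and 112 CPM with vehicle. For Gata3, the groups overlapped in ST2+ cells, and every treated library lay above every vehicle library in IL25R+ cells. It rose by 0.86 ± 0.14 in IL25R+ cells (adjusted p = 0.000157), the ST2+ change was -0.50 ± 0.24 (adjusted p = 0.173), and the difference was -1.33 ± 0.29 (adjusted p = 0.00768). Kit, the stem cell factor receptor, had 84.6, 103, 139.7 and 81.1 CPM in ST2+ cells with IL-33 and 202, 269.9, 181 and 124 CPM in ST2+ vehicle. Kit in IL25R+ cells had 181, 196 and 167 CPM with both cytokines and 120.3, 114 and 121 CPM with vehicle. For Kit, the groups overlapped in ST2+ cells, and every treated library lay above every vehicle library in IL25R+ cells. Its difference was -1.52 ± 0.31 (adjusted p = 0.00487). Thy1, a surface glycoprotein that T cells also carry, had 119.9, 257, 354 and 149 CPM in ST2+ cells with IL-33 and 706, 1014, 1349 and 684 CPM in ST2+ vehicle. Thy1 in IL25R+ cells had 2707, 2821 and 2841 CPM with both cytokines and 3011, 3088 and 3047 CPM with vehicle. For Thy1, every treated library lay below every vehicle library in both populations. The Thy1 difference was -1.96 ± 0.39 (adjusted p = 0.00435). Il7r, the receptor for the IL-7 in the medium, had 18.1, 16.6, 27.9 and 23.5 CPM in ST2+ cells with IL-33 and 77.9, 57.2, 88.1 and 28.6 CPM in ST2+ vehicle. Il7r in IL25R+ cells had 44.8, 56.6 and 62.1 CPM with both cytokines and 37.7, 35 and 50.9 CPM with vehicle. For Il7r, every treated library lay below every vehicle library in ST2+ cells, and the groups overlapped in IL25R+ cells. Its difference was -1.87 ± 0.42 (adjusted p = 0.00985). Ifngr1, an interferon gamma receptor chain, fell in ST2+ cells (log2 change -1.70 ± 0.22), had a log2 change of -0.17 ± 0.14 in IL25R+ cells that did not pass, and had a difference of -1.53 ± 0.25 (adjusted p = 0.00119). Klrg1, an inhibitory receptor of mature ILC2, had 49.7, 122, 76.8 and 41.6 CPM in ST2+ cells with IL-33 and 76.8, 66.1, 59.3 and 51 CPM in ST2+ vehicle, did not pass there (adjusted p = 0.788), and was at 5.78, 1.09 and 0.634 CPM in IL25R+ cells with both cytokines and 0.65, 1.17 and 0 CPM in IL25R+ vehicle.

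Cell division genes rose in IL25R+ cells. Of the G2 and mitosis list 1 of 13 tested genes was higher in ST2+ cells with IL-33 (median log2 0.107) and 10 of 12 in IL25R+ cells with both cytokines (median 2.06), with none lower in either. Over all tested genes 8.52% were higher in ST2+ cells and 8.97% in IL25R+ cells, so 1 of 13 is near the general share. A lower difference was called for 5.37% of all genes tested for it. The difference was lower for 6 of 13 (median -1.96), and for 4 with limma-voom, the lowest count. It was lower for 8 without both ST2+ libraries that stood apart and for 10 with ST2+ libraries 1 and 4 alone, settings chosen after the data were seen. Under these settings 1 and 2 genes of the list were called lower in ST2+ cells, and 1 and 5 higher, in the same order. The IL25R+ count of 10 was 7 without vehicle library 1. Of the S phase list 6 of 16 were higher in ST2+ cells (median 0.717) and 14 of 15 in IL25R+ cells (median 1.29), and the difference was lower for 5 of 15 (median -0.808). The ST2+ count of 6 was 1 without IL-33 library 1, and 2 without IL-33 library 4 or vehicle library 2. The S phase count of differences was 1 or 2 without ST2+ IL-33 library 1 or 4, ST2+ vehicle library 1 or any single IL25R+ library of the 2 groups, 3 with the compared groups alone and 9 with ST2+ libraries 1 and 4 alone.

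Mki67, which encodes the proliferation marker Ki-67, had 62.4, 19.9, 117 and 69.8 CPM in ST2+ cells with IL-33 and 129.6, 67.9, 103 and 70.1 CPM in ST2+ vehicle. IL25R+ libraries held 39.7, 44.1 and 57 CPM with both cytokines and 2.6, 12.8 and 6.6 CPM with vehicle. The ST2+ groups overlapped and the IL25R+ groups did not, and the difference was -3.24 ± 0.64 (adjusted p = 0.00423). Top2a, the topoisomerase of dividing cells, had 202, 147, 173 and 226 CPM in ST2+ cells with IL-33 and 231, 107, 164 and 152 CPM in ST2+ vehicle. Top2a in IL25R+ cells had 99.7, 110.4 and 142 CPM with both cytokines and 25.4, 38.5 and 17 CPM with vehicle. For Top2a, the groups overlapped in ST2+ cells, and every treated library lay above every vehicle library in IL25R+ cells. Its difference was -1.95 ± 0.37 (adjusted p = 0.00287). Kif11, a spindle motor, had a difference of -2.24 ± 0.40 (adjusted p = 0.00221), and Birc5, the chromosomal passenger protein survivin, one of -2.28 ± 0.50 (adjusted p = 0.00793). Mcm5, a subunit of the replicative helicase, had 334, 173, 322 and 302 CPM in ST2+ cells with IL-33 and 303, 206, 124 and 309.6 CPM in ST2+ vehicle. Mcm5 in IL25R+ cells had 157, 138 and 134 CPM with both cytokines and 33.18, 36.1 and 28.3 CPM with vehicle. For Mcm5, the groups overlapped in ST2+ cells, and every treated library lay above every vehicle library in IL25R+ cells. It rose by 2.13 ± 0.21 in IL25R+ cells (adjusted p = 3.69e-07), the ST2+ change was 0.25 ± 0.30 (adjusted p = 0.612), and the difference was -1.87 ± 0.43 (adjusted p = 0.0104). Rrm2, a subunit of ribonucleotide reductase, rose in both, by 1.30 ± 0.32 in ST2+ cells (adjusted p = 0.019) and by 3.37 ± 0.35 in IL25R+ cells (adjusted p = 6.81e-07). The ST2+ call of Rrm2 was lost when ST2+ IL-33 library 1 or 4 or ST2+ vehicle library 2 or 4 was left out singly (adjusted p 0.000895 to 0.0731 over 16 alternatives). Its difference of -2.02 ± 0.57 was lost when ST2+ vehicle library 1 or 3, IL25R+ both library 1, 2 or 3 or IL25R+ vehicle library 1, 2 or 3 was left out singly and with limma-voom (adjusted p 0.00978 to 0.154 over 25 alternatives).

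**Figure D3:**
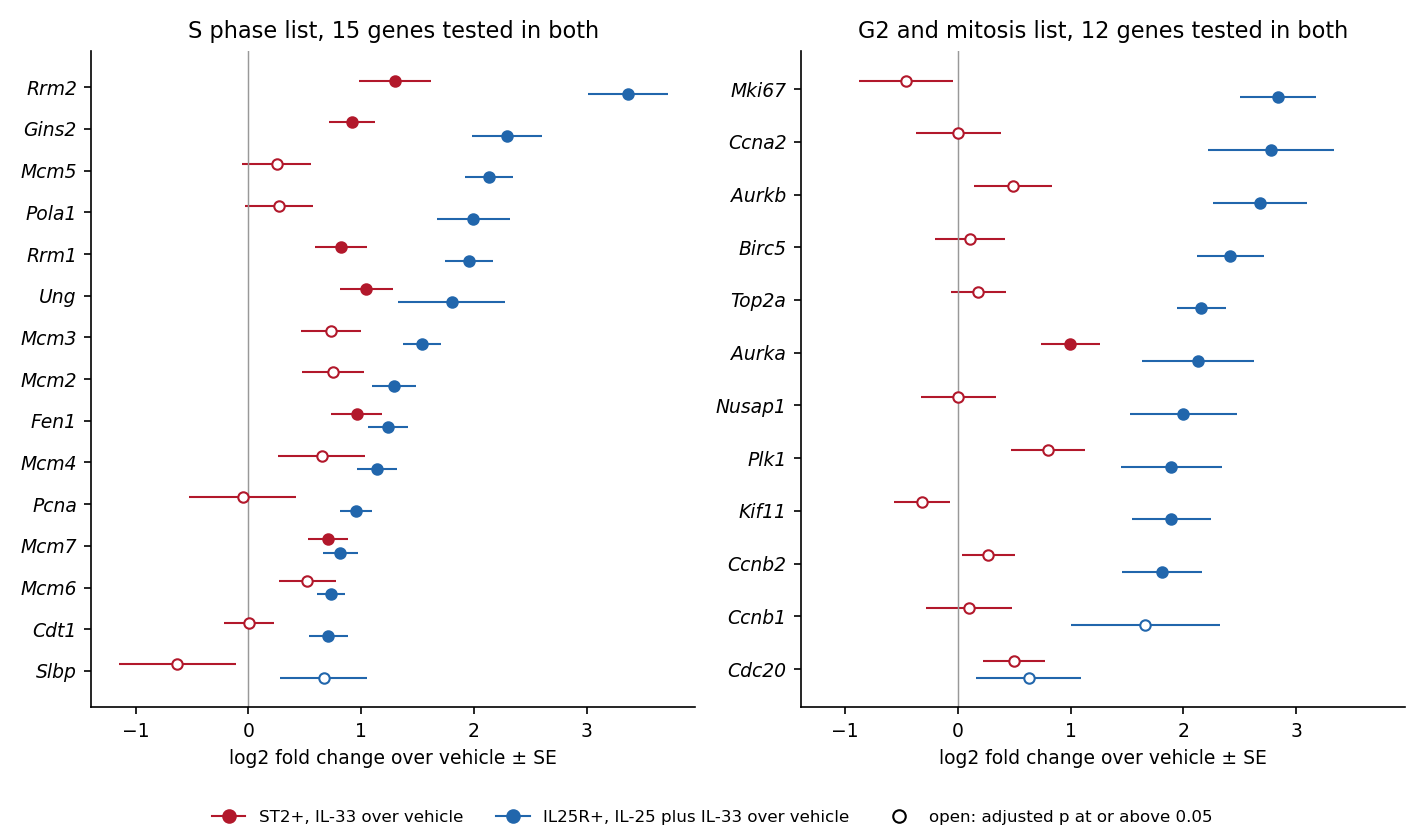
Log2 fold change over vehicle, with SE, of the genes of the S phase list (left) and the G2 and mitosis list (right) that were tested in both populations. Red is IL-33 in ST2+ cells and blue is IL-25 plus IL-33 in IL25R+ cells, with filled points past an adjusted p of 0.05. Red points of Mki67, Top2a, Birc5 and Kif11 lie at -0.46 to 0.18 and their blue points at 1.89 to 2.84.

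Some genes changed in opposite directions in the 2 populations. Mxd3, a partner of MAX that is expressed in dividing cells, on chromosome 13 (13:55325168-55329823, GRCm38), had 65, 86.3, 105 and 65.4 CPM in ST2+ cells with IL-33 and 192, 207, 134 and 201 CPM in ST2+ vehicle. In IL25R+ cells it had 18.1, 13.6 and 26.6 CPM with both cytokines and 2.6, 2.33 and 2.83 CPM with vehicle. The ranges were apart in each population and in opposite order, and the difference was -4.06 ± 0.47 (adjusted p = 4.70e-05). H2ax, the histone of the DNA damage mark, fell in ST2+ cells (-0.93 ± 0.18) and rose in IL25R+ cells (1.07 ± 0.22), a difference of -1.99 ± 0.28 (adjusted p = 0.000309). Nrm, a nuclear envelope protein, had 62.4, 96.3, 62.2 and 60.1 CPM in ST2+ cells with IL-33 and 146, 150.2, 108 and 123 CPM in ST2+ vehicle. Nrm in IL25R+ cells had 67.9, 58.2 and 69.7 CPM with both cytokines and 35.1, 31.5 and 27.4 CPM with vehicle, with a difference of -1.98 ± 0.27. For Nrm, every treated library lay below every vehicle library in ST2+ cells, and every treated library lay above every vehicle library in IL25R+ cells. Its ST2+ fall was lost when ST2+ IL-33 library 1 or ST2+ vehicle library 1 was left out singly (adjusted p 0.000424 to 0.0543 over 16 alternatives). Of the 13 genes called in opposite directions, 12 were lower in ST2+ cells and higher in IL25R+ cells, among them Tmem154 (-1.75 ± 0.31 in ST2+ cells and 1.17 ± 0.28 in IL25R+ cells) and Lgals3, which encodes galectin-3 (-1.50 ± 0.42 and 0.75 ± 0.10 in the same order). The Lgals3 fall in ST2+ cells was lost when ST2+ IL-33 library 1 or 4 or ST2+ vehicle library 2 or 3 was left out singly and without both ST2+ libraries that stood apart (adjusted p 0.00482 to 0.114 over 16 alternatives). The remaining gene, Eng, the TGF-beta coreceptor endoglin, was higher in ST2+ cells (0.87 ± 0.26) and lower in IL25R+ cells (-0.68 ± 0.15). The Eng call in ST2+ cells was lost when ST2+ IL-33 library 1 or 4 or ST2+ vehicle library 1, 2, 3 or 4 was left out singly and with the replicate block (adjusted p 0.0128 to 0.135 over 16 alternatives), while its difference of 1.56 ± 0.27 (adjusted p = 0.00165) held. The number of genes called in opposite directions was 4 without ST2+ IL-33 library 1 and 36 without ST2+ IL-33 library 2, the extremes when single libraries were left out.

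Ccl5, Cd69, Ptgir, Tnfrsf25 and Ltb rose with both cytokines in IL25R+ cells and were not called higher in ST2+ cells by edgeR with all libraries. Ccl5, a chemokine of activated lymphocytes, had 7.98, 6.64, 10.2 and 8.68 CPM in ST2+ cells with IL-33 and 14.9, 14.3, 47.4 and 13.6 CPM in ST2+ vehicle, where library 3 stood apart. In IL25R+ cells it had 439, 421 and 388 CPM with both cytokines and 63.1, 74.6 and 69.8 CPM with vehicle. For Ccl5, every treated library lay below every vehicle library in ST2+ cells, and every treated library lay above every vehicle library in IL25R+ cells. The difference was -3.79 ± 0.49 (adjusted p = 0.000118). Cd69, the activation antigen that holds lymphocytes in tissue, had 14.2, 1.11, 13.3 and 15 CPM in ST2+ cells with IL-33 and 6.15, 7.15, 6.78 and 15.4 CPM in ST2+ vehicle. It had 117, 125 and 138 CPM in IL25R+ cells with both cytokines and 9.11, 18.6 and 20.8 CPM in IL25R+ vehicle, and its difference was -2.69 ± 0.55 (adjusted p = 0.00509). For Cd69, the groups overlapped in ST2+ cells, and every treated library lay above every vehicle library in IL25R+ cells. Ptgir, the prostacyclin receptor, had 108, 105, 98.4 and 102 CPM in ST2+ cells with IL-33 and 99.9, 98.3, 137 and 125 CPM in ST2+ vehicle. Ptgir in IL25R+ cells had 36.9, 38.1 and 34.2 CPM with both cytokines and 14.3, 15.1 and 17.9 CPM with vehicle, a difference of -1.35 ± 0.25 (adjusted p = 0.00273). For Ptgir, the groups overlapped in ST2+ cells, and every treated library lay above every vehicle library in IL25R+ cells. Tnfrsf25, the receptor DR3, rose by 2.75 ± 0.37 in IL25R+ cells (adjusted p = 2.18e-05). Its ST2+ change was 0.82 ± 0.26 (adjusted p = 0.0557), which passed with DESeq2, with limma-voom and without IL-33 library 2 (adjusted p 0.0259 to 0.132 over the alternatives). The Tnfrsf25 difference of -1.94 ± 0.49 was lost when ST2+ IL-33 library 1, IL25R+ both library 1 or IL25R+ vehicle library 1, 2 or 3 was left out singly (adjusted p 0.000201 to 0.113 over 25 alternatives). Ltb, encoding lymphotoxin beta, rose by 0.48 ± 0.10 in IL25R+ cells (adjusted p = 0.00169). In ST2+ cells it was not called by edgeR without a block. It was called lower there with DESeq2 (log2 change -1.32), limma-voom (-1.49) and the replicate block (-1.59). The same held without IL-33 library 2 (-1.78), without both ST2+ libraries that stood apart (-1.69) and in libraries 1 and 4 alone (-2.25). The Ltb difference of -1.80 ± 0.46 was lost when ST2+ vehicle library 3, IL25R+ both library 1, 2 or 3 or IL25R+ vehicle library 1, 2 or 3 was left out singly and in the fit of the compared groups alone (adjusted p 6.38e-11 to 0.0815 over 25 alternatives).

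Other genes fell with IL-33 in ST2+ cells. Ccr2, a chemokine receptor on chromosome 9 (9:124101950-124113557, GRCm38), had 0.598, 1.11, 0.635 and 0.334 CPM in ST2+ cells with IL-33 and 92.2, 87.6, 108 and 23.9 CPM in ST2+ vehicle. Ccr2 in IL25R+ cells had 2.17, 8.16 and 5.07 CPM with both cytokines and 5.2, 2.33 and 11.3 CPM with vehicle, low in both groups. The log2 change was -7.03 ± 0.61 in ST2+ cells (adjusted p = 0.00023) and -0.25 ± 0.57 in IL25R+ cells, and the difference of -6.72 ± 0.97 (adjusted p = 0.000348) was the largest of the lower ones called at a mean of 10 CPM or more. Itgae, the integrin CD103, had 26.7, 85.2, 39.99 and 24.5 CPM in ST2+ cells with IL-33 and 260.2, 286, 189.8 and 252 CPM in ST2+ vehicle. Itgae in IL25R+ cells had 331, 337 and 348 CPM with both cytokines and 357, 310.0 and 324 CPM with vehicle. For Itgae, every treated library lay below every vehicle library in ST2+ cells, and the groups overlapped in IL25R+ cells. Its difference was -2.64 ± 0.37 (adjusted p = 0.000268), and that of its partner chain Itgb7 was -1.39 ± 0.25 (adjusted p = 0.00213). Of the list of homing and egress receptors 1 of 14 was higher and 3 lower in ST2+ cells, where 8.52% and 8.03% of all tested genes were. In IL25R+ cells 2 of 14 were higher and 1 lower, where 8.97% and 6.67% of all tested genes were. The difference was higher for 1 and lower for 3 of 13. The lower count of 3 was 6 without ST2+ IL-33 library 3, in both the ST2+ response and the difference.

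Cd27, a costimulatory receptor, fell in both populations and further in ST2+ cells. It had 8.18, 11.1, 17.8 and 10.8 CPM in ST2+ cells with IL-33 and 87.6, 107, 139 and 85.2 CPM in ST2+ vehicle. Cd27 in IL25R+ cells had 214, 224 and 183 CPM with both cytokines and 293, 320.5 and 347 CPM with vehicle. For Cd27, every treated library lay below every vehicle library in both populations. The difference was -2.51 ± 0.30 (adjusted p = 7.03e-05). Bcl2, which protects lymphocytes from death, had 9.97, 34.3, 26.7 and 7.84 CPM in ST2+ cells with IL-33 and 86.6, 93, 88.1 and 67.2 CPM in ST2+ vehicle. Bcl2 in IL25R+ cells had 206, 196 and 217 CPM with both cytokines and 292, 294 and 307 CPM with vehicle, a difference of -1.78 ± 0.41 (adjusted p = 0.0113). For Bcl2, every treated library lay below every vehicle library in both populations. Of 12 tested apoptosis regulators the difference was lower for Bcl2 and Birc5 and higher for none, and lower for 4 without ST2+ IL-33 library 3. With all libraries 5.37% of all tested genes had a lower difference and 1.75% a higher one. Alox5, the 5-lipoxygenase of leukotriene synthesis, had 7.38, 13.3, 6.35 and 5.17 CPM in ST2+ cells with IL-33 and 16.4, 17.9, 20.3 and 22.4 CPM in ST2+ vehicle. Alox5 in IL25R+ cells had 2.89, 5.98 and 4.44 CPM with both cytokines and 0, 0 and 0 CPM with vehicle, so no fold is given in IL25R+ cells. Of the interferon response list 3 of 9 genes were lower in ST2+ cells and none higher, while 1 of 11 was higher in IL25R+ cells, and the difference was lower for 3 of 10 (median -0.989). All tested genes had 8.03% lower and 8.52% higher in ST2+ cells. In IL25R+ cells 8.97% were higher, so 1 of 11 is near the general share. Ifi27l2a had a difference of -2.54 ± 0.37 (adjusted p = 0.000388), and Irf7, the factor that amplifies interferon genes, one of -1.51 ± 0.34 (adjusted p = 0.0101). Ifitm2, whose family has near-identical members, completed the 3 at -1.72 ± 0.43, a call lost when IL25R+ both library 3 or IL25R+ vehicle library 1, 2 or 3 was left out singly and in the fit of the compared groups alone (adjusted p 0.00232 to 0.0734 over 25 alternatives). The ST2+ count was 5 without IL-33 library 2.

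The 12 largest called differences on the lower side, at a mean of 10 CPM or more, were those of Ccr2, Amigo2, Ms4a4b, Mxd3, Ccl5, Serpinb1a, Pimreg, Ly6d, Samd9l, Tbc1d4, AW549877 and P2ry10, between -6.72 and -3.42. AW549877 was lost with weighted limma-voom (adjusted p 0.000373 to 0.0535 over 25 alternatives), and the other 11 held under every alternative that could be run. Ly6d, a surface protein of lymphoid progenitors, had 2.99, 22.1, 14.6 and 3.5 CPM in ST2+ cells with IL-33 and 13.8, 10.7, 69.5 and 4.04 CPM in ST2+ vehicle. Ly6d in IL25R+ cells had 1636, 1975 and 2113 CPM with both cytokines and 345, 390.4 and 403 CPM with vehicle. For Ly6d, the groups overlapped in ST2+ cells, and every treated library lay above every vehicle library in IL25R+ cells. Ms4a4b, a lymphocyte membrane protein with close relatives, had 0, 5.53, 8.89 and 1 CPM in ST2+ cells with IL-33 and 20.5, 53.6, 99.98 and 8.45 CPM in ST2+ vehicle. Ms4a4b in IL25R+ cells had 1011, 1104 and 975 CPM with both cytokines and 736, 775 and 836 CPM with vehicle. For Ms4a4b, the groups overlapped in ST2+ cells, and every treated library lay above every vehicle library in IL25R+ cells. Its ST2+ fall was lost when ST2+ IL-33 library 1 or 4 or ST2+ vehicle library 2 or 3 was left out singly and without both ST2+ libraries that stood apart (adjusted p 0.00498 to 0.088 over 16 alternatives). Thy1, Cd27, Ms4a4b and Ly6d are also genes of T cells or their precursors, and the summed T-cell markers given above were lower with treatment in both populations. Of 4 tested T-cell markers 1 was lower in ST2+ cells and of 6 tested 2 were lower in IL25R+ cells, and none of 5 had a called difference. Over all tested genes 8.03% were lower in ST2+ cells and 6.67% in IL25R+ cells. A difference was called for 7.12%, so none of 5 is near the general share. Cd3g had 16.8, 35.4, 26.7 and 10.5 CPM in ST2+ cells with IL-33 and 91.2, 78.7, 50.8 and 51.4 CPM in ST2+ vehicle. Cd3g in IL25R+ cells had 205, 165 and 163 CPM with both cytokines and 322, 299 and 266 CPM with vehicle. For Cd3g, every treated library lay below every vehicle library in both populations. Its difference of -1.02 ± 0.41 did not pass with all libraries (adjusted p = 0.141) and passed without ST2+ IL-33 library 2 (adjusted p = 0.0258), with the replicate number as a block and under both sets of libraries added after the data were seen (adjusted p 0.00301 to 0.323 over 25 alternatives). The part of T-cell RNA in these results was not tested.

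By the smaller of the 2 falls, the 10 genes that fell most in both responses were Lpcat2, Ttc38, Carns1, Dbp, Matk, Rasgrp1, Adamts10, Hdhd5, Pitpnc1 and Ldhb. Dbp, an output factor of the circadian clock, had 9.37, 21, 4.44 and 9.68 CPM in ST2+ cells with IL-33 and 50.7, 44.7, 42.4 and 59.9 CPM in ST2+ vehicle. Dbp in IL25R+ cells had 23.1, 29.4 and 23.4 CPM with both cytokines and 61.1, 66.4 and 49.1 CPM with vehicle. For Dbp, every treated library lay below every vehicle library in both populations. Rasgrp1, an activator of Ras in lymphocytes, had 12, 17.7, 27.9 and 13.2 CPM in ST2+ cells with IL-33 and 111, 48.3, 50.8 and 40.03 CPM in ST2+ vehicle. Rasgrp1 in IL25R+ cells had 123, 112 and 129 CPM with both cytokines and 291, 242 and 258 CPM with vehicle. For Rasgrp1, every treated library lay below every vehicle library in both populations. The log2 change of Adamts10 was -1.29 ± 0.25 in ST2+ cells and -1.08 ± 0.12 in IL25R+ cells, and that of Ttc38 -1.99 ± 0.34 in ST2+ cells and -1.28 ± 0.17 in IL25R+ cells. With all libraries Matk alone of the 10 had a called difference, -2.01 ± 0.56 (adjusted p = 0.0302), which was lost when ST2+ IL-33 library 1 or 4, IL25R+ both library 1, 2 or 3 or IL25R+ vehicle library 1, 2 or 3 was left out singly and in the fit of the compared groups alone (adjusted p 0.00109 to 0.132 over 25 alternatives). Without ST2+ IL-33 library 2 the differences of Lpcat2 (adjusted p = 0.00689, range 0.00187 to 0.548) and Dbp (adjusted p = 0.0075, range 0.00253 to 0.247) passed too, and without ST2+ vehicle library 4 that of Pitpnc1 (adjusted p = 0.0485, range 0.0485 to 0.389). The IL25R+ fall of Lpcat2 was lost when IL25R+ both library 1, 2 or 3 or IL25R+ vehicle library 1 or 3 was left out singly, with no filter on low counts, with DESeq2, with limma-voom and with the replicate block (adjusted p 0.0314 to 0.382 over 11 alternatives). That of Hdhd5 was lost when IL25R+ both library 1, 2 or 3 or IL25R+ vehicle library 1, 2 or 3 was left out singly, with DESeq2 size factors, with no filter on low counts, with the 10 CPM filter, with DESeq2 and with limma-voom (adjusted p 0.0227 to 0.168 over 13 alternatives). The ST2+ fall of Carns1 was lost when ST2+ IL-33 library 1 or 4 or ST2+ vehicle library 1, 2 or 3 was left out singly, with no filter on low counts, without both ST2+ libraries that stood apart and with ST2+ libraries 1 and 4 alone (adjusted p 0.0149 to 0.135 over 15 alternatives). For Pitpnc1 it was lost when ST2+ IL-33 library 1 or 4 or ST2+ vehicle library 1 was left out singly (adjusted p 0.00141 to 0.0672 over 15 alternatives), and for Ldhb when ST2+ IL-33 library 1 or 4 or ST2+ vehicle library 1 was left out singly (adjusted p 0.00298 to 0.0804 over 16 alternatives).

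Of the list of cytokine receptors and Janus kinases the difference was higher for 1 of 12 (Jak2) and lower for 4 (Il7r, Il4ra, Ifngr1 and Csf2rb), where 1.75% and 5.37% of all tested genes were called. The lower count was 2 with the compared groups alone and without ST2+ IL-33 library 4, IL25R+ library 1 with both cytokines or IL25R+ vehicle library 1. Of the costimulatory and inhibitory receptors the difference was higher for 1 of 13 (Tnfrsf4) and lower for 3 (Tnfrsf25, Cd69 and Cd27). The Tnfrsf4 call was lost with limma-voom. It was also lost without ST2+ IL-33 library 1, ST2+ vehicle library 2 or 3, IL25R+ library 1 or 2 with both cytokines, or IL25R+ vehicle library 2 or 3.

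Beside the counts of the next lists, 8.52% of all tested genes were higher in ST2+ cells and 8.97% in IL25R+ cells. Lower ones made up 8.03% and 6.67% in that order. The difference was higher for 1.75% and lower for 5.37%. Ribosome biogenesis genes were higher for 6 of 15 in ST2+ cells (median 0.878) and for 4 of 16 in IL25R+ cells (median 0.377), where 1 was lower. The ST2+ count was 10 without IL-33 library 2 and 3 without IL-33 library 1 or 4 or vehicle library 1 or 4. Their difference was higher for 3 of 16 (median 0.673), for 8 without ST2+ IL-33 library 2, for 1 without ST2+ vehicle library 1 and for none with the compared groups alone. Genes of the unfolded protein response and secretion were higher for 6 of 17 in ST2+ cells and 9 of 17 in IL25R+ cells, with medians of 0.641 and 0.593 in that order and 1 called difference, and the ST2+ count was 10 without IL-33 library 2. Glycolysis genes were higher for 5 of 14 in each population. In ST2+ cells that count was 2 without IL-33 library 1 or 4 or vehicle library 1, 2 or 3, and 3 without vehicle library 4. In IL25R+ cells it was 2 without vehicle library 1 or 3, and 3 without vehicle library 2 or library 2 or 3 with both cytokines. Respiratory chain genes were higher for 2 of 13 in ST2+ cells (1 without IL-33 library 1 and 4 without IL-33 library 2) and 6 of 13 in IL25R+ cells (3 without library 3 with both cytokines or vehicle library 1). Gapdh, which has many pseudogene copies, is among the 5 of IL25R+ cells, and in the ST2+ table it had 724, 1494, 2443 and 35.2 CPM with IL-33 and 1557, 28.6, 32.2 and 1912 CPM with vehicle, with no order by group. Cholesterol and fatty acid synthesis genes were called for none of 15 in ST2+ cells and 5 of 15 in IL25R+ cells, with no called difference among 16. The IL25R+ count was 1 without vehicle library 1, 2 without library 3 with both cytokines, and 3 without library 1 with both cytokines or vehicle library 3. At an unadjusted level the edgeR difference had p under 0.05 for 2053 of all 8964 genes. The amino acid supply list had 4 of 12 higher and 1 lower in ST2+ cells and 5 of 12 higher in IL25R+ cells, and the ST2+ higher count was 7 without IL-33 library 2. Shmt2, a mitochondrial enzyme of serine use, rose by 1.52 ± 0.28 in ST2+ cells and by 0.90 ± 0.15 in IL25R+ cells.

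**Figure D4:**
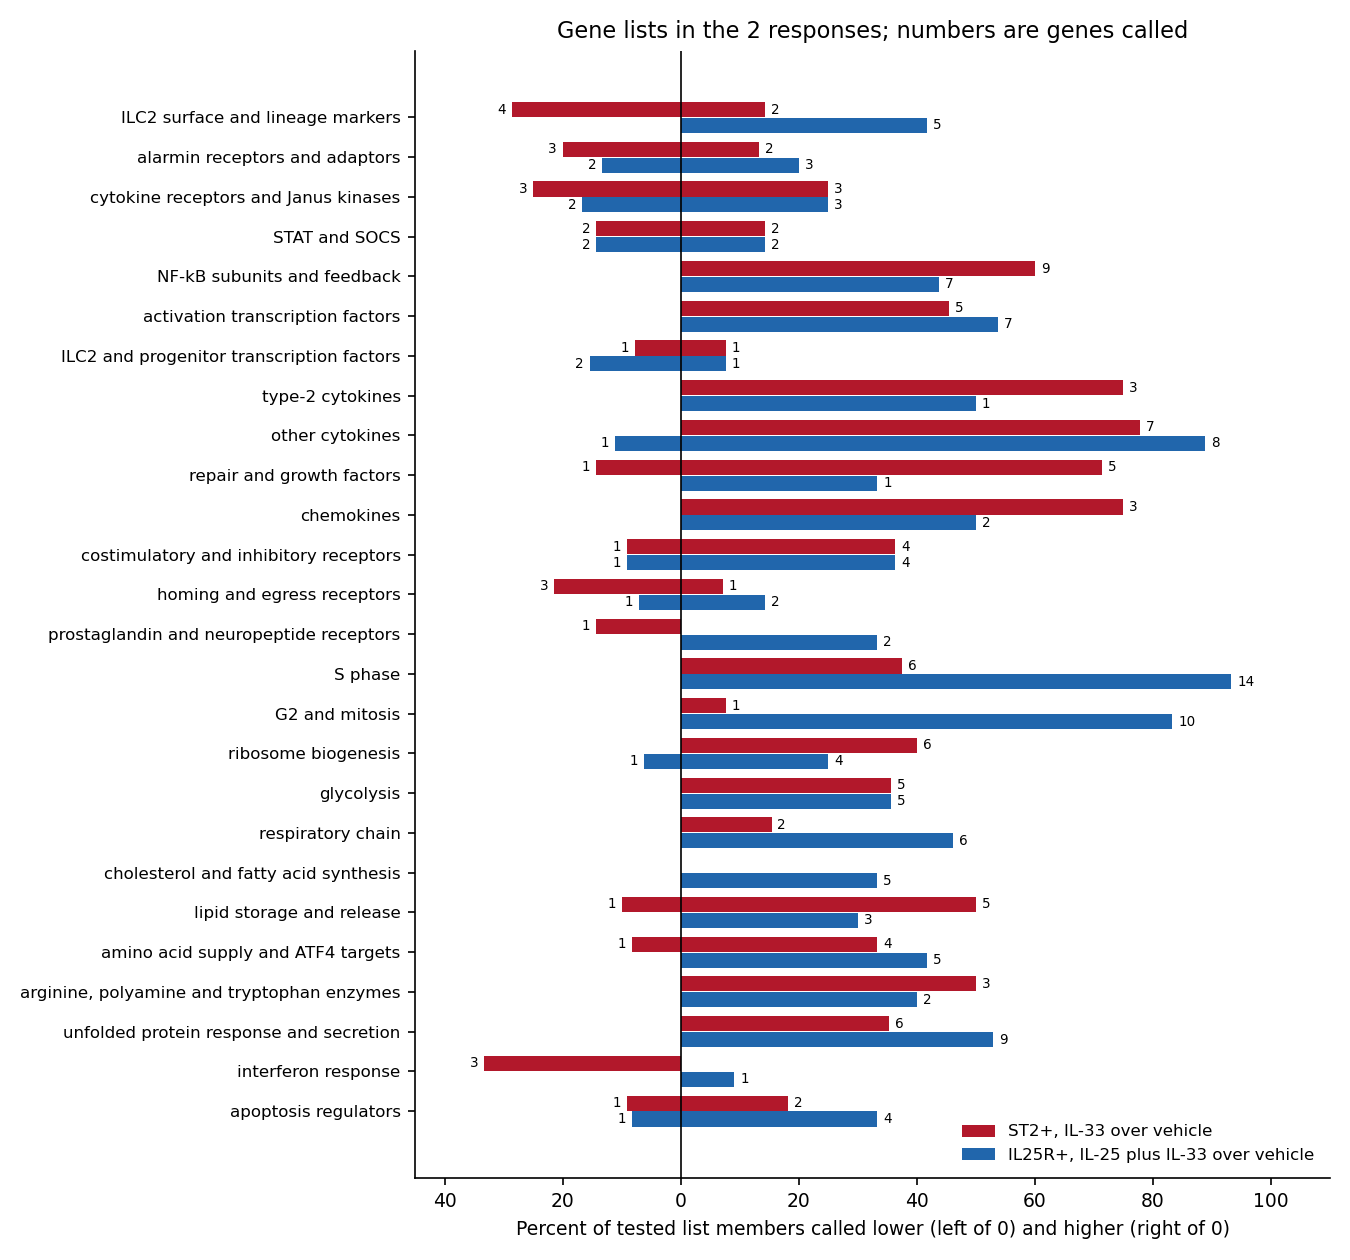
Percent of the tested members of each gene list called higher (right) and lower (left) in ST2+ cells with IL-33 (red, upper bar) and in IL25R+ cells with both cytokines (blue, lower bar), with the number of genes at each bar. The G2 and mitosis list shows 1 gene higher in ST2+ cells and 10 in IL25R+ cells, and the NF-kB list 9 and 7 in the same order.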

How the data were processed

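RNA of the sorted cells was counted at the 3' end by MARS-seq, per the labels' protocols. The submitters' processing notes name bcl2fastq, cutadapt, STAR 2.5.2b, HTSeq, DESeq2 and build mm10, with no order. The raw counts per gene deposited by the authors were used, in 2 tables with 10580 (ST2+) and 10696 (IL25R+) listed genes, of which 9608 were in both. Each response was fitted in its own table (8 ST2+ libraries, 12 IL25R+ libraries), and the difference in the joined table of 20 libraries, using edgeR 4.0.16 under R 4.3.3 (filterByExpr with a minimum count of 10, TMM scaling, glmQLFTest) and Benjamini-Hochberg adjustment over all genes tested. The threshold was an adjusted p of 0.05. Errors of log2 changes are SE from the F statistic, and CPM are scaled within a table. No fold is given against a group with 3 counts or fewer. Alternatives used DESeq2 1.42.0, limma-voom 3.58.1, other scalings and filters, the compared groups alone, a replicate block and single libraries left out. The code was checked on simulated counts. The members and the gene lists were chosen with earlier results of these data known. The genes named were the 12 largest called differences in each direction at a mean of 10 CPM or more, the 10 largest shared changes in each direction, opposite calls and listed pathway genes, and which of the listed genes are described was chosen after values were seen. Of 11668 listed symbols 11443 (98.1%) matched GENCODE. Same-numbered libraries correlated at 0.0195 to 0.251 in ST2+ cells and at -0.031 to 0.042 in IL25R+ cells, and since not every pair passed 0.1 the numbers were not taken as pairs.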

Additional observations from a re-analysis of the deposited data

Results flagged for a closer look

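The responses of the 2 populations differed by the test of the difference itself for 157 genes that were higher and 481 genes that were lower in ST2+ cells with IL-33 than in IL25R+ cells with both cytokines.

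Among 102 genes examined in the 2 ST2+ groups of 4 libraries, 15 of 204 groups held a library far from the other 3. Chance flags about 1 in 20 groups. In ST2+ cells with IL-33, library 2 stood apart for Cd69 (1.11 CPM), Ptger4 (29.9 CPM), Nrm (96.3 CPM), Lpcat2 (57.6 CPM), Epcam (3.32 CPM), Tmx1 (15.5 CPM) and Tbc1d4 (2.21 CPM). Library 3 of the same group stood apart for Ier3 (287.6 CPM) and Endou (1.27 CPM). In ST2+ vehicle, library 3 stood apart for Junb (135.6 CPM), Ccl5 (47.4 CPM), Matk (25.4 CPM) and Ly6d (69.5 CPM), library 4 for Cd69 (15.4 CPM) and library 1 for Rasgrp1 (111.1 CPM). The groups of 3 IL25R+ libraries were not examined in this way.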

How the results depend on the processing

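The count of called differences rose most when ST2+ libraries were left out. The calls depended on the IL25R+ libraries too. Of the 638 calls, 352 to 375 remained without any single IL25R+ library of the 2 compared groups. Without a single ST2+ library 372 to 638 remained. With DESeq2, 282 differences were higher, with the compared groups alone 74 higher and 284 lower, without both ST2+ libraries that stood apart 699 and 958, and with ST2+ libraries 1 and 4 alone 928 and 1453, the last 2 settings chosen after seeing the data. Leaving out single libraries gave 92 to 656 higher and 252 to 968 lower. The ST2+ response had 1383 higher and 1143 lower genes without both libraries, 1766 and 1598 with libraries 1 and 4 alone, and 324 to 1348 higher and 295 to 1233 lower with single libraries left out. The joint response had 466 to 708 higher and 313 to 401 lower with single libraries left out. Genes higher in both numbered 368 and lower in both 240 with ST2+ libraries 1 and 4 alone, and 146 to 331 and 91 to 224 with single libraries left out. Opposite calls numbered 20 with DESeq2, 23 with limma-voom, 40 and 80 under the 2 added settings and 4 to 36 with single libraries left out. Listed genes with a higher difference, 19 with all libraries, numbered 9 with the compared groups alone, 44 and 51 under the added settings and 10 to 41 with single libraries left out, and those with a lower one, 37, numbered 82 with ST2+ libraries 1 and 4 alone and as few as 24 without IL25R+ vehicle library 1. With the replicate number as a block the difference was higher for 250 genes and lower for 708. Same-numbered libraries correlated at -0.031 to 0.251. The treated libraries 1, 3 and 4 of ST2+ cells and 3 of IL25R+ cells correlated best with the vehicle library of their own number. Since not every library did, the block is not read as a pairing, and whether the ST2+ libraries were paired is not known. Of the calls named, 51 of 67 differences, 54 of 70 ST2+ responses and 57 of 73 joint responses held under all alternatives.

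Changes of sign were found in 36 of 5249 recomputed values, all for changes that were not called. In the ST2+ response Klrg1 was -0.047 with limma-voom, -0.21 without both libraries and -0.42 with libraries 1 and 4 alone. Gapdh was -0.11 and -2.13 under the same added settings, and Ifitm2 was 0.19 with libraries 1 and 4 alone. In the joint response Irf7 was 0.0019 with DESeq2 size factors, 0.0080 with no filter and 0.0015 with the 10 CPM filter. In the difference Adap1 was 0.14 and 0.44 and Carns1 0.20 and 0.12 under the added settings. With single libraries left out, the ST2+ changes ranged from -0.18 to 0.32 for Klrg1, -0.040 to 0.36 for Birc5, -0.24 to 1.10 for Gapdh and -1.82 to 0.017 for Ly6d. The joint changes ranged from -0.044 to 0.083 for Nfkbib, -0.76 to 0.38 for Ccr2, -0.12 to 0.048 for Gstm1, -0.045 to 0.22 for Ifi27l2a and -0.067 to 0.089 for Irf7. The differences ranged from -1.43 to 1.01 for Tnfrsf9, -0.42 to 0.063 for Cd72, -0.85 to 0.16 for Adap1, -0.39 to 0.085 for Carns1 and -0.57 to 0.0013 for Ldhb. The cause was not tested. The smallest library, an ST2+ vehicle one, held 537999 counts.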
